A study of Mus musculus with 74 samples.

Results

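The windows described here are the 250 windows of 40 kb that lie wholly inside chr11:85000001-95000000 of the mouse genome (mm9), of 68162 windows in the whole table. They were chosen by position, because the study drew this locus. Genome architecture mapping (GAM) sequences the DNA of thin cryosections cut through single nuclei in random orientation, so each library holds whatever chromatin lay in that slice. The 74 libraries form 1 group: each holds a single nuclear profile of 46C, a mouse embryonic stem (ES) cell line (strain 129/Ola) that carries GFP at the Sox1 locus. Cells grew on gelatin with serum and LIF and spent the final 24 h in serum-free ESGRO Complete medium. No untreated or mock slice is among the libraries, so each library served as its own reference. Nothing in the labels says that the libraries came from separate cultures, so p-values measure the spread between slices.

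A locus in GAM is recorded only as present or absent in a slice, and a pair of loci that lie near each other in the nucleus tend to be cut together. Neighbouring windows therefore share slices because they are joined on the same fibre, and the sharing falls as the distance along the chromosome grows. Gene-dense, GC-rich chromatin tends to lie towards the nuclear interior and to be decondensed, whereas gene-poor chromatin tends to be compact and peripheral. The region has gene-dense and gene-poor stretches. By the GENCODE annotation of this build it contains the starts of 99 protein-coding genes, against an average of 86.6 per 10 Mb over the autosomes and 136 over chromosome 11. It ranked 6 of 11 in gene starts among the 10 Mb intervals of chromosome 11 laid from 5 Mb on, where the others held 28 to 327. Its count thus lies above the autosomal average and below that of its chromosome.

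A few stretches show the range of sequence in the region, and were not compared by gene content. The lines below hold 200 bases each, 5′ to 3′ on the strand named, with CpG dinucleotides in capitals. The first pair precedes the annotated starts of Vezf1 (plus strand, chr11:87881581-87881780), a zinc-finger transcription factor gene detected in 7 libraries, and Coil (plus strand, chr11:88831366-88831565), which encodes the Cajal body protein coilin and was detected in 2. The next pair comes from the gene-poor stretch, before Kif2b (minus strand, chr11:91438924-91439123) and Car10 (plus strand, chr11:92959142-92959341). The last pair are the centres, on the plus strand, of a window found in 9 libraries, the most in the region (chr11:87779901-87780100), and of a window found in none (chr11:88859901-88860100). None of these stretches overlaps an annotated exon.
Vezf1 upstream: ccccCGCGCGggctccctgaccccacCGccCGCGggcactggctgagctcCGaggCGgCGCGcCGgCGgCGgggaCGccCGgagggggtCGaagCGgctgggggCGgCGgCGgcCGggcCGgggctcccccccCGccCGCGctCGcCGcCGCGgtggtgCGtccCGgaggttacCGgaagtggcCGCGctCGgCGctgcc
Coil upstream: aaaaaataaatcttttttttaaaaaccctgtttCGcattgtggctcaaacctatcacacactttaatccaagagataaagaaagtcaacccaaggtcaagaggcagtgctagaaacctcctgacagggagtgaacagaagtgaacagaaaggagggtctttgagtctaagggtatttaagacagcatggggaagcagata
Kif2b upstream: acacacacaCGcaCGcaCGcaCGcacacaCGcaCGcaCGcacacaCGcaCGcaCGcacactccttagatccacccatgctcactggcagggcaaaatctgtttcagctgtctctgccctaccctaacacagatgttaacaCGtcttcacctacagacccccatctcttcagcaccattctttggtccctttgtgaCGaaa
Car10 upstream: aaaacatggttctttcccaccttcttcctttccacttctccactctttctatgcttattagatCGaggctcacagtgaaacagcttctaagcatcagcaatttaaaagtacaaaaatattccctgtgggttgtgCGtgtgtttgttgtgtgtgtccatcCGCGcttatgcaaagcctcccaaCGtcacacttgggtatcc
Dynll2 window centre: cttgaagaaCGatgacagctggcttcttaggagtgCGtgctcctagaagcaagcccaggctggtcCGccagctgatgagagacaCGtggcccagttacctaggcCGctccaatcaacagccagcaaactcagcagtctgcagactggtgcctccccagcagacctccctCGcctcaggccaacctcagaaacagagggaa
Coil and Trim25 window centre: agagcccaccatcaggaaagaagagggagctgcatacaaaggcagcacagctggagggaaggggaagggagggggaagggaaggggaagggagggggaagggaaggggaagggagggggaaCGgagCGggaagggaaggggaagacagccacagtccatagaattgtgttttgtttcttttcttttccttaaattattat

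The Vezf1 stretch was 85% G+C with 36 CpG, the Coil stretch 40% with 1, the Kif2b stretch 54.5% with 12 and the Car10 stretch 44% with 5. Over the 99 protein-coding starts of the region the median was 13 CpG in the same 200 bases, and 95 of the 99 held at least 1 CG. At window centres the median was 1, and 74.4% of the 250 held a CG. The centre of the Dynll2 window was 58.5% G+C with 6 CpG. The centre of the window that no slice contained was 53.5% G+C with 2 CpG.

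A window of the region was positive in 3.70 ± 1.99 of the 74 libraries (mean ± SD over 250 windows), with a median of 3.5 and a maximum of 9. In all, 240 windows (96%) were detected at least once, 21 of them in a single library. The remaining 10 windows were never detected, and 0 of 74 libraries allows a share of up to 4.05%, taken as 3 counts of 74 and not as a Wilson limit. Of all 250 windows, 10 were positive in more than 10% of libraries. Intervals and floors given here cover counting error only, and the depth behind a call is unknown because the deposited table keeps no read counts.

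Detection was uneven along the region. It rose from 3.60 libraries per window at 85 to 86 Mb through 4.12 at 86 to 87 Mb to 5.04 at 87 to 88 Mb, fell to 2.32 at 88 to 89 Mb and 1.84 at 89 to 90 Mb, and then climbed through 2.64, 3.36, 3.68 and 4.24 to 6.20 in the last 1 Mb. Over all 74 libraries the peaks lay in the segments with most genes: 21 protein-coding genes start at 87 to 88 Mb and 28 at 94 to 95 Mb. In f13 libraries the share of windows positive in these segments was 10.4% and 13.5%, their highest values. In f14 libraries it was 3.80% and 4%, below the 4.3% at 85 to 86 Mb, where 6 genes start. The peaks were thus not seen in f14 libraries alone. The trough was not gene-free, since 10 protein-coding genes start at 88 to 89 Mb, where G+C was 47.4%. The share positive at 88 to 89 Mb was 2.71% in f13 libraries, their lowest. In f14 libraries it was 3.50%, close to the 3.80% of the segment before, and their lowest was 1.70% at 89 to 90 Mb. The gene-poor stretch from 91 to 93 Mb, with 1 start in each 1 Mb and G+C of 37.8% and 38.2%, was detected at an intermediate level.

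**Figure D1:**
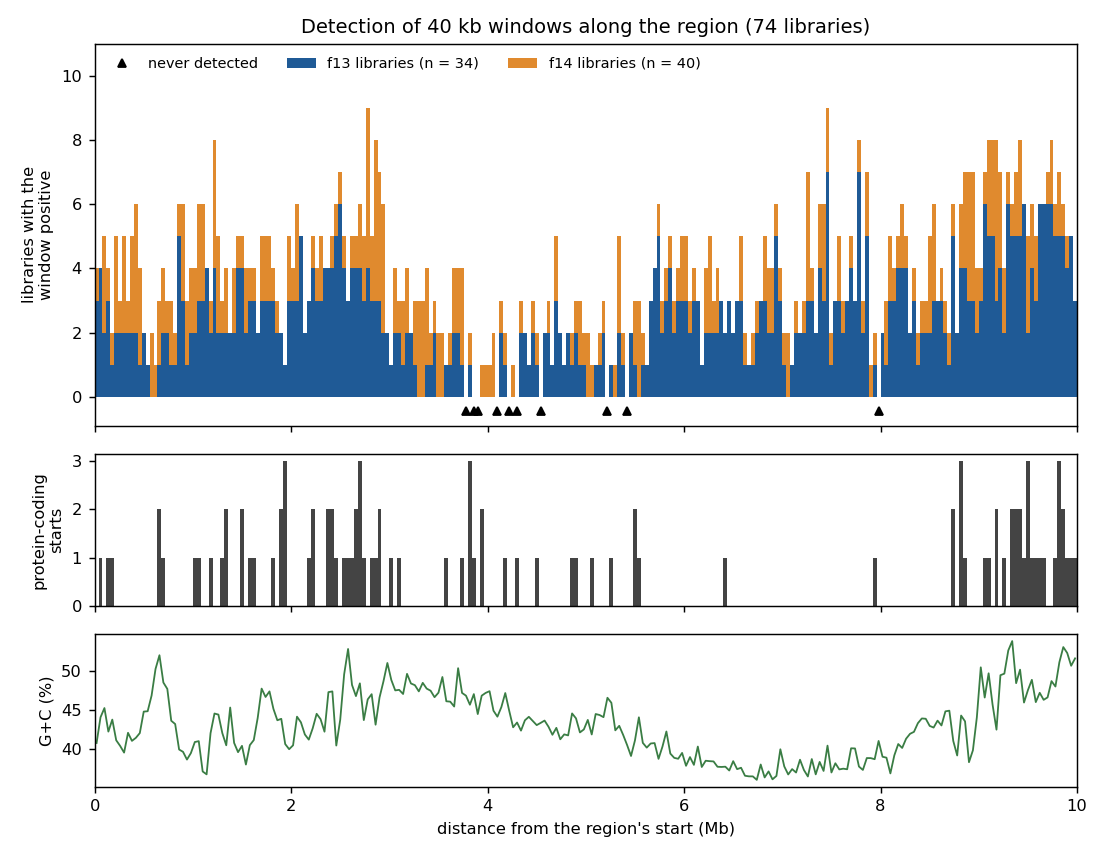
Top, number of libraries in which each of the 250 windows was positive, stacked by the f13 (blue, 34) and f14 (orange, 40) prefixes of the library titles, with triangles under the 10 windows never detected. Below, protein-coding gene starts per window and G+C in percent, all against distance from the region's start in Mb; 7 of the 10 triangles sit between 3 and 5 Mb, where mean detection is lowest.

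Both windows positive in 9 libraries differed in content. The window chr11:87760001-87800000 overlaps Dynll2, a dynein light chain gene, and was positive in 4 f13 and 5 f14 libraries. The window chr11:92440001-92480000 overlaps no protein-coding gene and was positive in 7 f13 and 2 f14 libraries. Of the 10 windows never detected, 7 lay in chr11:88760001-89560000, among them the window of Scpep1 and the window chr11:88840001-88880000, which covers the 3′ end of Coil and the start of Trim25. The other 3 overlapped Hlf, Stxbp4 and Car10. At other windows along their length these genes were seen, Stxbp4 in 10 libraries, Car10 in 15 and Hlf in 3.

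G+C content described little of this profile. Sorted into 5 equal classes of 50 windows by G+C, detection was 3.62, 4, 3.30, 3.34 and 4.26 libraries per window from the lowest class (36.1% to 38.9%) to the highest (47.1% to 53.8%). The class of 43.9% to 47.04% held 6 of the 10 windows never detected. Across the 250 windows the Pearson correlation of detection with G+C was 0.09 (Spearman 0.05). It was -0.16 inside 85 to 90 Mb and 0.35 inside 90 to 95 Mb, and -0.06 over 2968 windows of chromosome 11 free of unknown bases. Windows share libraries with their neighbours, so these coefficients are descriptions and carry no test.

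The study named 8 genes of the locus, those for regulators of transcription and RNA and those linked to pluripotency, and all 8 lie between 86 and 90 Mb. Ints2, a subunit of the Integrator complex that processes small nuclear RNAs, was detected at its start window in 6 libraries (8.11%, Wilson 95% interval 3.77% to 16.6%). Med13, of the Mediator kinase module, was positive in 3, and Supt4h1, which encodes the small subunit of the elongation factor DSIF, in 5. Vezf1 reached 7 libraries (9.46%, interval 4.66% to 18.3%), the most of the 8 at a start window. At the start window those nearest the trough were seen least. Coil was in 2 libraries, Msi2, a Musashi RNA-binding protein gene, in 1, and Nog, whose product noggin blocks BMP signals, in 2. Trim25, a ubiquitin ligase gene, was in 0 (a share of up to 4.05%, by the same 3 counts). Counted at any of its 12 windows, Msi2 was in 8 libraries, the most of the 8 genes by that count. The 8 windows were not tested against each other.

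Shared slices among these 8 genes were few. Ints2 and Med13, whose start windows are 0.12 Mb apart, were together in 3 libraries, against 0.243 expected from their frequencies. These are all 3 libraries that held the start window of Med13. Vezf1 and Nog, 1.28 Mb apart, were together in 2, which are both libraries that held Nog. Ints2 and Vezf1, 1.84 Mb apart, were together in 0 libraries, where 0.568 would be expected. Supt4h1 and Vezf1, 0.36 Mb apart, shared 2 of their 5 and 7 libraries, and counting a window or its direct neighbour they shared 5. With expectations below 1 library, an absence of shared slices says nothing about these pairs.

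Other genes of the region were grouped by role, each read at the window of its annotated start. Signalling and membrane genes had a mean of 5.29 libraries over 7 windows, from 4 for Rps6kb1 (the kinase S6K1) and Abcc3 (an export pump) to 7 for Spag9 (a JNK scaffold). Secreted and granule protein genes had 4.80 over 5 windows. This list joins the neighbouring peroxidase genes Mpo, Lpo and Epx, at 5, 5 and 6 libraries, with the collagen gene Col1a1 at 6 and Car10 at 2. Transcription factor genes and regulators had 3.83 over 6 windows, with the antiproliferative gene Tob1 at 7, the T-box genes Tbx2 and Tbx4 at 3 and 4, and Hlf, of the PAR bZIP family, at 1.

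DNA repair and cell division genes averaged 3.67 libraries over 6 windows. Among them Rad51c, a homologous recombination gene, was found in 5 libraries, the helicase gene Brip1 in 4, Ppm1d, which encodes a phosphatase induced by p53, in 4, and the kinesin gene Kif2b in 2. Nme1 and Nme2, adjacent genes for nucleoside diphosphate kinases, start in the same window, which was positive in 6. The vesicle traffic genes Cltc (clathrin heavy chain), Stxbp4 and Tom1l1 were at 4, 3 and 3. Over the 34 start windows of all named genes the mean was 4.03 libraries, beside 3.70 over the 250 windows of the region, and the lists were not tested against each other. At 94 to 95 Mb, 22 of the 25 windows were positive in more f13 than f14 libraries, as were 152 of the 250 windows of the region. The start window of Itga3, an integrin gene, had 5 f13 and 0 f14 libraries, and those of Col1a1 and the calcium channel gene Cacna1g had 5 and 1 each. The start window of Abcc3 had 2 and 2, the window where Ankrd40 and Luc7l3 start 3 and 5, and the window where Eme1, Lrrc59 and Mrpl27 start 2 and 3.

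Per library, 5.01% ± 8.01 of the region's windows were positive (mean ± SD, n = 74), against 6.35% ± 6.56 over the remaining 2797 windows of chromosome 11. The difference of -1.34 percentage points was below the spread between slices (23 libraries higher, 48 lower, two-sided sign-flip permutation test, p = 0.0933). It was -2.11 in the 40 f14 libraries (p = 0.00498, permutation) and -0.44 in the 34 f13 libraries (p = 0.767). Leaving out the library f13c2 gave -1.65 (permutation p = 0.0265) and leaving out f13c1 gave -1.64 (p = 0.0291), and the other 72 omissions did not pass, the value reaching -1.11 without f13b2 (permutation p = 0.153). Against all other autosomes the difference was -0.63 (permutation p = 0.529). With the same test on each of the 11 intervals, 0 departed from the rest of the chromosome after Benjamini-Hochberg adjustment and 1 (5 to 15 Mb, higher) did at an unadjusted p under 0.05. The region's adjusted permutation p was 0.337. By mean detection it ranked 10 of 11, above the last interval laid (3.33 libraries per window) and close to 65 to 75 Mb (3.77). Its 10 windows never detected were exceeded by the 12 of that last interval.

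**Figure D2:**
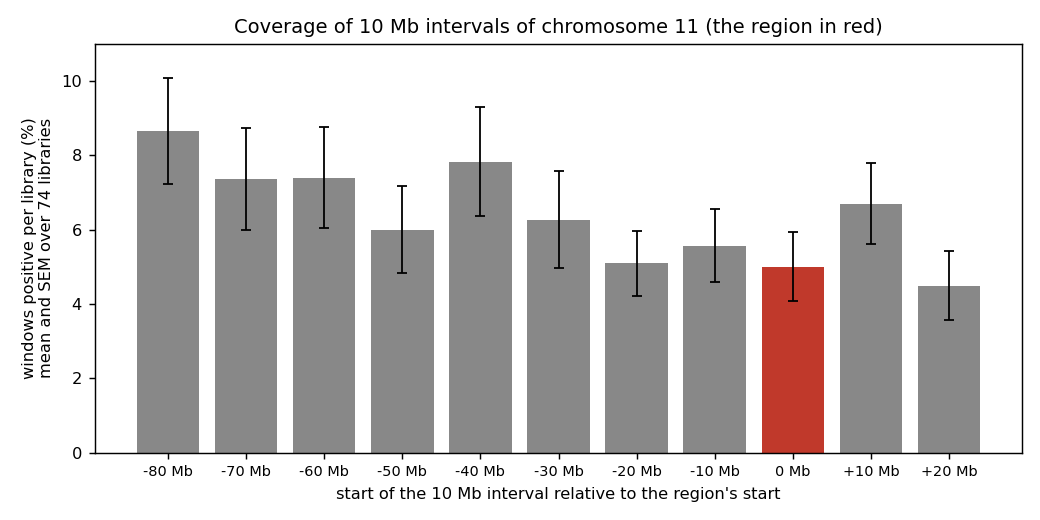
Mean percent of the 250 windows positive per library in each 10 Mb interval of chromosome 11, by start relative to the region's start, with bars of 1 SEM over 74 libraries. The region (red) stood at 5.01%, within a range over the other 10 intervals of 4.50% to 8.65%.

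The library titles carry the prefix f13 or f14, and the region's coverage was given within each. It was 7.07% ± 9.81 in f13 and 3.25% ± 5.62 in f14 libraries (permutation p = 0.0367, 0.114 after adjustment over 5 such comparisons). At 85 to 90 Mb it was 5.95% ± 8.56 in f13 and 3.40% ± 5.97 in f14 libraries (permutation p = 0.14, adjusted 0.2). At 90 to 95 Mb it was 8.19% ± 13.7 and 3.10% ± 8.14 (permutation p = 0.0456, adjusted 0.114). Whether the gap between prefixes differed between these sides was not tested. At 94 to 95 Mb, 13 f13 libraries but 5 f14 libraries contained the segment. The rest of chromosome 11 was also higher in f13 libraries, at 7.51% ± 6.85 against 5.36% ± 6.21, by less than the spread between slices (permutation p = 0.16, adjusted 0.2). Over all windows of the genome the values were 5.42% ± 2.47 and 5.13% ± 2.86 (permutation p = 0.64). Whether the gap in the region exceeded that in the rest of the chromosome was not tested. What the prefixes stand for is not given in the labels, and their part in the results was not tested beyond the values within each.

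Both sides of 90 Mb were then compared within slices. The side with fewer gene starts is not gene-poor throughout, since 28 of its starts lie at 94 to 95 Mb. Windows at 85 to 90 Mb, with 58 gene starts, were positive at 4.57% ± 7.33, and those at 90 to 95 Mb, with 41 starts, at 5.44% ± 11.2 (difference -0.86, 21 libraries higher and 19 lower, permutation p = 0.485). The difference was -2.24 in f13 and 0.30 in f14 libraries, and without f13c2 it was -0.24. Windows that overlap a protein-coding gene (155) were positive at 5.24% ± 7.92 and the other 95 at 4.62% ± 9.38 (difference 0.62, 25 libraries higher and 17 lower, permutation p = 0.383). It was 0.99 without f13c2 and 0.01 with windows merged to 200 kb (permutation p = 0.996). Inside 85 to 90 Mb the same difference was 1.31 (permutation p = 0.0567) and inside 90 to 95 Mb 0.90 (p = 0.199). No side and no gene class was thus called more often detected.

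The region was present in some slices and missing from others. In 32 libraries no window was positive, and 42 libraries held between 1 and 106 of the 250. The median was 1 and the mean 12.5 ± 20.01 windows, and the 10 libraries with most windows held 57.3% of the 926 positive calls. The slice f13c2 held 106 windows (42.4%, Wilson 95% interval 36.4% to 48.6%), where its coverage of all windows was 6.72% and of the rest of chromosome 11 21.2%. Next came f13c1 with 74 windows (29.6%) and f14a6 with 69 (27.6%). Of 35 libraries with at least 5% of the rest of chromosome 11, 7 held none of the region, and f13f2 held 17.8% of the rest and 0 of these windows.

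Positive windows came in short runs. There were 437 runs of adjacent positive windows, with a mean length of 2.12 windows, and 244 of them (55.8%) were single windows, which held 26.3% of the calls. The longest run was 16 windows (0.64 Mb), in f13c2, and 8 runs in 4 libraries reached 10 windows. In the 31 libraries with at least 5 positive windows both in the region and in the other intervals, the mean run was 2.19 ± 0.79 windows in the region and 2.26 ± 0.60 in the other 10 intervals (difference -0.07, permutation p = 0.57), and the difference ran from -0.13 without f13c2 to -0.02 without f13a5. Run length in the region was not distinguishable from that elsewhere on the chromosome.

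**Figure D3:**
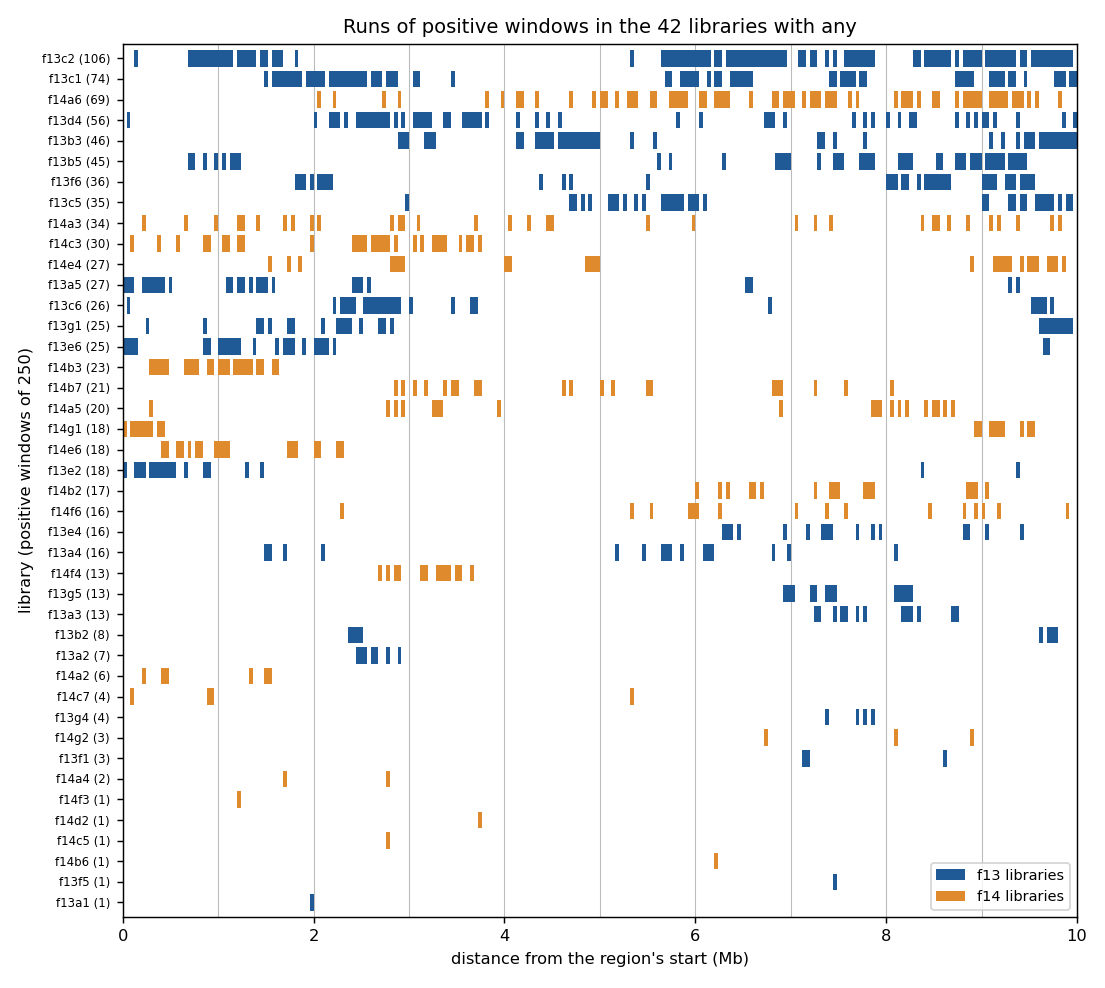
Each row is 1 of the 42 libraries with a positive window, labelled with its count of 250 and ordered by it; bars are runs of adjacent positive windows against distance from the region's start in Mb, f13 in blue and f14 in orange. Long broken tracts such as that of f13c2 (106 windows) stand beside slices that crossed the region at its ends only.

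Linkage was followed with distance by 3 measures, because each answers differently to how often windows are detected. Co-segregation, the share of libraries in which both windows of a pair were positive, fell from 2.65% ± 0.62 for adjacent windows to 1.09% ± 0.33, 0.61% ± 0.26 and 0.55% ± 0.21 for windows 1, 2 and 4 Mb apart (± jackknife SE over libraries), and was 1% ± 0.53 at 8 Mb. Relative to the mean of the other 10 intervals it was lower by more than 2 SE at 0.4 Mb (-0.91 ± 0.37 percentage points), 1 Mb (-0.79 ± 0.30), 2 Mb (-0.82 ± 0.22) and 4 Mb (-0.64 ± 0.24). It was within 2 SE at 0.04 Mb (-0.97 ± 0.53), 0.2 Mb (-0.90 ± 0.45) and 8 Mb (-0.06 ± 0.56). This measure falls with detection itself. Divided by the product of both windows' detection frequencies, this was 9.20 ± 1.45-fold for adjacent windows, 7.03 ± 1.05 at 0.2 Mb and 5.63 ± 0.86 at 0.4 Mb. It went on falling to 4.53 ± 0.77 at 1 Mb, 2.78 ± 0.81 at 2 Mb and 2.75 ± 0.75 at 4 Mb. All of these lay above the 1-fold of independent windows. On this scale the region differed from the mean of the other 10 intervals by less than its SE at all 7 distances measured, for example by -0.43 ± 0.83 at 2 Mb. Its rank among the 11 intervals ran from 2 at 0.04 Mb to 10 at 2 Mb.

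The normalized linkage disequilibrium D′, which runs from -1 (never together) to 1 (always together where possible), was below the mean of the other intervals up to 4 Mb and above it at 8 Mb. Neither end kept this direction throughout. The difference at 0.04 Mb was 0.007 with isolated calls removed and 0.03 in f13 libraries, and that at 8 Mb was -0.43 in f14 libraries. For pairs 0.04, 0.2 and 0.4 Mb apart mean D′ was 0.53 ± 0.09, 0.28 ± 0.13 and 0.08 ± 0.13. For pairs 1, 2 and 4 Mb apart it was -0.12 ± 0.16, -0.49 ± 0.16 and -0.51 ± 0.14, and at 8 Mb -0.26 ± 0.31, where it ranked 4 of 11 (difference 0.05 ± 0.33). At 2 and 4 Mb it was last of 11 intervals by less than its SE, with the last interval laid at -0.47 ± 0.14 at 2 Mb and at -0.50 ± 0.18 at 4 Mb, and 65 to 75 Mb at -0.50 ± 0.15 at 4 Mb. The difference from the mean of the other 10 was -0.36 ± 0.14 at 2 Mb and -0.28 ± 0.15 at 4 Mb. D′ is -1 for any pair that never shared a slice, and that held for 10.9% of the region's pairs at 0.04 Mb and 63.3% at 2 Mb, among pairs with both windows detected. The region ranked 10 of 11 in detection as well, and the part of detection in this ranking was not tested. Pairs limited to windows detected in 5% to 10% of libraries gave a mean D′ of -0.06 ± 0.13 relative to chromosome 11 at matched distance. Over all 18055 pairs up to 4 Mb apart it was -0.24 ± 0.10, and with pairs of negative D′ left out it changed sign, to 0.05 ± 0.05.

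**Figure D4:**
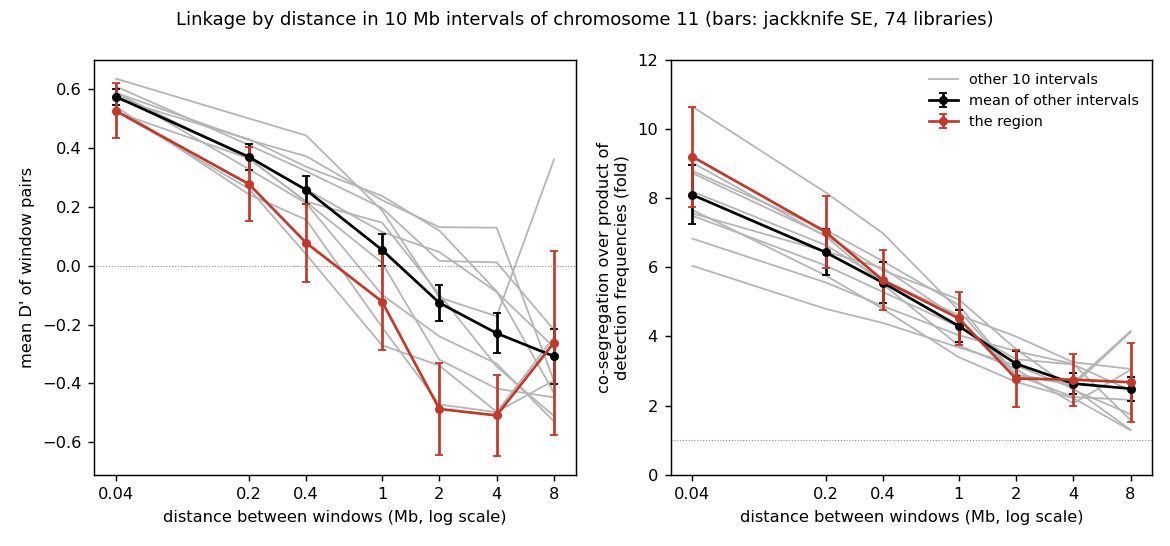
Mean D′ (left) and co-segregation over the product of detection frequencies (right) against distance between windows in Mb on a log axis, for the region (red), each other 10 Mb interval (grey) and their mean (black), with jackknife SE over 74 libraries. At 2 Mb the red point is lowest on the left (-0.49, with the nearest grey line at -0.47) and inside the grey lines on the right (2.78).

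Within the region, gene content did not separate the pairs. Relative to chromosome 11 at the same distance, mean D′ was -0.34 ± 0.06 for the 6425 pairs with a protein-coding gene in both windows. For the 3560 pairs with a gene in neither it was -0.15 ± 0.22, a difference of -0.20 ± 0.22. In windows detected in 5% to 10% of libraries these values were -0.20 ± 0.09, 0.09 ± 0.24 and -0.29 ± 0.23. Without pairs of negative D′ they were -0.003 ± 0.04, 0.08 ± 0.06 and -0.08 ± 0.06. With gene windows defined by a gene start the difference was 0.01 ± 0.10. Pairs inside 85 to 90 Mb had -0.39 ± 0.08 and pairs inside 90 to 95 Mb 0.04 ± 0.24, a difference of -0.43 ± 0.28. In windows detected in 5% to 10% of libraries these were -0.26 ± 0.13, 0.15 ± 0.23 and -0.41 ± 0.28. Without pairs of negative D′ they were 0.009 ± 0.05, 0.07 ± 0.06 and -0.065 ± 0.072. On the scale of co-segregation over the product, pairs of gene windows were at 3.70 ± 0.55 and pairs of gene-free windows at 5.25 ± 1.38, and the sides at 3.48 ± 0.55 and 5.13 ± 1.22. None of the differences given in this paragraph exceeded 2 SE, and no test was made.

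Inside single slices, pair concordance gives the chance that the partner of a positive window is positive too: each pair with both windows positive counts 2, and the sum is divided by itself plus the pairs in which a single window was positive, in percent. In the 31 libraries concordance at 0.04, 0.2, 0.4, 1, 2 and 4 Mb was 49.1% ± 17.1, 32.4% ± 15.2, 23.7% ± 14.7, 16.96% ± 14.7, 7.44% ± 10.9 and 6.51% ± 10.1 in that order (mean ± SD). With the pairs of the other 10 intervals pooled, their values were 52.6%, 39.05%, 33.3%, 24.5%, 17.7% and 15.4%. The region was called lower at 0.4 Mb (adjusted permutation p = 0.0057), 1 Mb (0.0239), 2 Mb (6e-05, 25 of 31 libraries lower) and 4 Mb (0.00363). In f13 libraries alone the calls at 0.4, 1 and 4 Mb were lost (adjusted permutation p = 0.268, 0.458 and 0.268), and with at least 10 positive windows that at 1 Mb was (0.128).

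That contrast was not particular to the region. Put in its place, all 11 intervals were lower than the pool of the others at 1 Mb and 10 were at 2 Mb, with 5 called at each. A pool is weighted towards intervals with many positive windows, and the part of this weighting in the offset was not tested. The other intervals were then averaged at equal weight, leaving out in each library those with fewer than 5 positive windows. On this measure the region's difference was -5.10 at 2 Mb (7.44% against 12.5%, 22 of 31 libraries lower, adjusted permutation p = 0.0476) and was not called at the other 5 distances. At 2 Mb it was the lowest of 11 intervals and the only 1 called, with p-values adjusted over 6 distances but not over intervals. The intervals nearest to it in detection were close, 65 to 75 Mb at -4.48 (21 of 32 libraries lower) and the last interval laid at -4.03 (17 of 26 lower). Within prefixes it was -4.17 in 18 f13 libraries (adjusted permutation p = 0.616) and -6.39 in 13 f14 libraries (0.0658), where 4 Mb was called in place of 2 Mb (-5.40, adjusted permutation p = 0.0411). At 2 Mb the call was lost on leaving out any single 1 of 22 libraries (highest adjusted p 0.1002, without f13b2). In these 31 libraries the region's coverage was 11.7% ± 8.76 and that of all 10 other intervals 11.1% ± 7.04. The latter includes the intervals left out of the equal-weight mean.

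To ask which parts of the region were cut together, a 1 Mb segment was counted as present in a slice that held at least 2 of its 25 windows. The segments from 85 to 95 Mb were present in 13, 15, 18, 10, 8, 10, 13, 16, 15 and 18 libraries in order. In 39 libraries no segment was present. In 19 libraries segments of both sides of 90 Mb were present, in 8 only the 85 to 90 Mb side and in 8 only the 90 to 95 Mb side. Of the 35 libraries with a segment, 18 held a single unbroken block of segments and 17 held 2 or more blocks with a gap. The longest block was 8 segments, and in 0 libraries were all 10 present.

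Of the 45 pairs of segments, 26 (57.8%) were present together more often than expected (exact conditional test stratified by coverage of other chromosomes, Benjamini-Hochberg over 22761 pairs), where 61.7% of the pairs tested on chromosomes 1 to 19 and X, at most 9 Mb apart, were. All 9 adjacent pairs were called, against a background of 92.8%, 5 of 8 pairs 2 Mb apart (62.5%, background 82.3%), and 12 of 28 pairs 3 to 9 Mb apart (42.9%, background 54.1%). The shares over all pairs and over 3 to 9 Mb are not matched by distance, since near pairs weigh more in the region (9 of 45 adjacent, against 2609 of 22761). At 3, 4, 5, 6 and 7 Mb they were 42.9%, 50%, 40%, 25% and 33.3%, with backgrounds of 71.7%, 62.9%, 56.5%, 51.1% and 47.4%. At 8 and 9 Mb, with 2 pairs and 1 pair, they were 50% and 100%, with backgrounds of 45.6% and 42.5%. No pair was called apart, here or elsewhere in the genome, and 0 of the 45 reached an unadjusted p under 0.05 in that direction in this exact test. The fewest shared libraries possible would reach such a p in 18 of the 45 pairs, and none of those 18 did. In the remaining pairs segments are present in too few libraries for it, so the absence says nothing there. It says little about the 18 as well, because the expected number does not take in whether chromosome 11 was in the slice. Pairs of all chromosomes together lay above the expected number at every distance, from 2.92-fold at 1 Mb to 1.97-fold at 9 Mb. Of the other intervals of chromosome 11, 65 to 75 Mb had fewer called pairs (16), 75 to 85 Mb had the same 26, and the rest had 28 to 43. Summed over the 45 pairs, both segments were present 2.39 times the expected number of times, within the range of 1.83 to 3.35 of the other intervals. Leaving out f14a3 lowered the calls from 26 to 22 and those 3 Mb or more apart from 12 to 7.

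**Figure D5:**
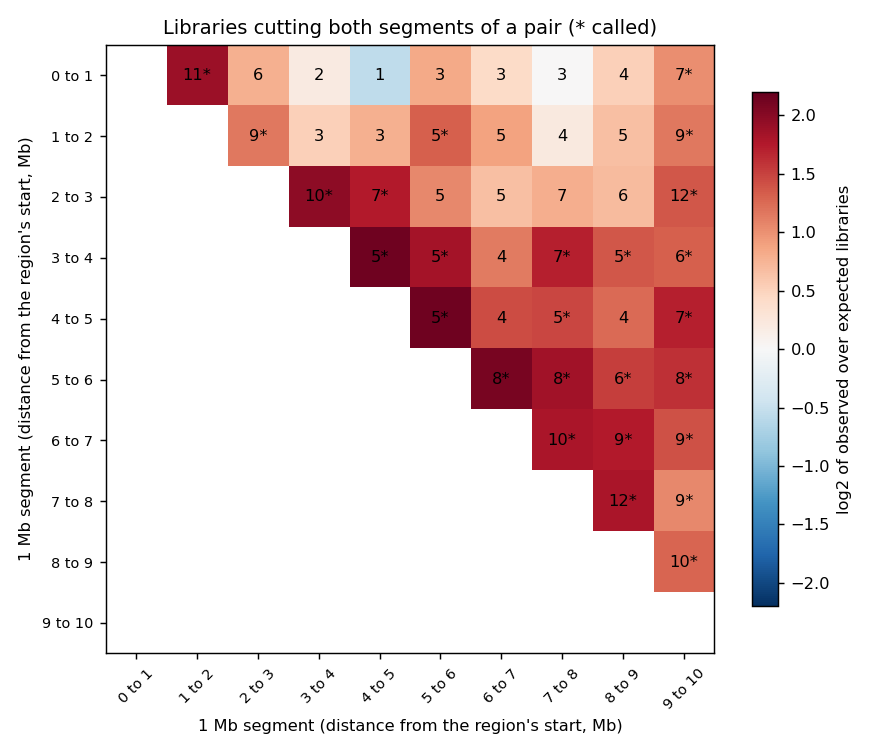
Number of libraries in which both 1 Mb segments of a pair were present, by distance of each segment from the region's start in Mb, coloured by log2 of observed over expected, with stars for called pairs. The last column, the gene-dense 94 to 95 Mb segment, is starred throughout, with 6 to 12 shared libraries.

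Of the 12 called pairs at 3 Mb or more, 7 included the gene-dense last segment, which was singled out after the values were seen. All 7 pairs of 94 to 95 Mb with a segment 3 Mb or more away were called, against 5 of the other 21 pairs at such distances. Fewer were called without isolated calls (3 of 7, and 1 of 21), in f13 (1 and 0) and in f14 libraries (2 and 3), and without f14a3 (5 and 2), where 38.95%, 4.51%, 24.97% and 51.98% of all pairs 3 to 9 Mb apart were called. The farthest pair called, 9 Mb apart, joined 85 to 86 with 94 to 95 Mb. Both were present in 7 libraries where 3.44 were expected (exact test, adjusted p = 0.0481, 0.0895 without f14a3). This was 2.03-fold, close to the 1.97-fold of pairs of all chromosomes together at 9 Mb, of which 42.5% were called. The segments 87 to 88 and 94 to 95 Mb, which hold most gene starts, were together in 12 of the 18 libraries of each, where 4.64 were expected (2.58-fold, exact test, adjusted p = 0.000126). That call kept an adjusted p of at most 0.000365 on leaving out each library in turn. By comparison, 87 to 88 Mb shared 5 libraries with the gene-poor segment 91 to 92 Mb, which is nearer (3.16 expected, exact test, adjusted p = 0.332). Yet 91 to 92 Mb was itself called with 94 to 95 Mb, in 9 shared libraries where 3.43 were expected (2.62-fold, exact test, adjusted p = 0.00137), a ratio no lower than that of the gene-dense pair. Pairs of all chromosomes together stood at 2.03-fold at 7 Mb, the distance of the gene-dense pair. They stood at 2.34-fold at 3 Mb, the distance of 91 to 92 from 94 to 95 Mb. At 4 Mb they stood at 2.22-fold, above the 1.58-fold of 87 to 88 with 91 to 92 Mb. Neither the differences between these pairs nor those from the values of all chromosomes were tested.

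Around the trough all 10 libraries that held 88 to 89 Mb also held 87 to 88 Mb (2.55 expected, exact test, adjusted p = 4.89e-06). The trough segments 88 to 89 and 89 to 90 Mb shared 5 libraries, while 5 held the former alone and 3 the latter alone, and 89 to 90 Mb also shared 5 with 90 to 91 Mb (1.14 expected and adjusted p = 0.00412 for each, exact test). At 4 and 5 Mb, pairs of all chromosomes together stood at 2.22-fold and 2.14-fold. The highest ratios at 3 Mb or more in the region were 3.26-fold, each with 7 shared libraries against 2.15 expected. They were those of 88 to 89 with the gene-poor 92 to 93 Mb (4 Mb apart) and of 89 to 90 with 94 to 95 Mb (5 Mb apart). The lowest was 0.68-fold, for 85 to 86 with 89 to 90 Mb, together in 1 library where 1.48 were expected (exact test, p = 1). Of the pairs of the first segment, that with 86 to 87 Mb was called (11 shared libraries, 2.98 expected), and at 3 Mb or more 1 of 7 was, the pair with 94 to 95 Mb whose call was lost without f14a3. Inside 90 to 95 Mb all 10 pairs were called and inside 85 to 90 Mb 5 of 10, where the shares of all pairs called at the same distances average 82.4%. These counts were not compared by a test.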

How the data were processed

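Nuclear profiles were cut from 46C ES cells, amplified with the WGA4 kit and sequenced after Nextera preparation, per the labels. The submitters' processing notes name Bowtie2 2.1 and mm9. The authors deposited 1 table of presence calls, another kind of value than a count: each of 68162 windows of 40 kb is 0 or 1 in each of 74 libraries. Reads were not part of it, so depth per library is unknown. The study's methods describe duplicate removal and a read threshold for calling windows with GAMtools; whether the same threshold made these calls is not given in the sources used here.

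Calls were read as deposited. Over all windows libraries had 5.27% ± 2.68 positive (SD, range 0.0205% to 12.4%), and 5 libraries were under 1%. No call was filtered. Genes came from GENCODE for NCBIM37, whose chromosome lengths equal the ends of the table's last windows, and sequences from that genome. Libraries were compared with themselves by two-sided sign-flip permutation tests (100000 flips, smallest p 1e-05), with Benjamini-Hochberg adjustment over intervals or distances and a threshold of 0.05. Segment pairs were tested by an exact conditional test over 5 strata of coverage of the other autosomes, adjusted over all pairs. D′ and co-segregation carry jackknife standard errors over libraries. Statistics were tested on simulated data and run in Python 3.11.15 with NumPy 2.4.6, SciPy 1.17.1, pandas 2.3.3 and matplotlib 3.10.9.

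The windows, set by position, and the gene lists and tests were chosen with earlier results of these data known. Named genes were the 8 the study named in the locus and others of known role inside it, read at the window of their annotated start. Dlx4 was on the list but is not in the region. Sequences are printed for a few starts and window centres, and others are not reported here. Named windows were by rule those with most detections and up to 3 never detected, and named libraries the 3 with most windows. Other windows, libraries and pairs were named after their values were seen. Alternatives removed isolated calls, sparse libraries or often detected windows, kept 1 prefix, changed window or segment size, strata and minimum calls, and left out each library.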

Additional observations from a re-analysis of the deposited data

How the results depend on the processing

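Of 83 alternatives to results with a test, 68 kept direction and side of the threshold, and 13 of 17 for counts of calls stayed within 1.5 times. Among those 13 are all for the intervals departing from the rest of the chromosome. That count was 0 in every setting, so it shows nothing about stability. The counts that moved were all of called segment pairs. Of 55 for D′, which has no test, 48 moved by less than the SE and 5 changed sign. Among those 5, within the SE, the difference from other intervals at 0.04 Mb was 0.00734 without isolated calls and 0.0262 in f13 libraries, and with gene windows defined by a gene start, pairs with a gene in both windows minus pairs with none gave 0.0135. Of all 155, 8 were added after seeing the data, as was leaving out single libraries. In f14 libraries alone the difference between 85 to 90 and 90 to 95 Mb was 0.30 and that between the region and the rest of chromosome 11 was -2.11, past the threshold. Mean run length differed by 0.0442 windows in f13 libraries and by 0.000953 with at least 10 positive windows, both of opposite sign to the value given above. Pair concordance against pooled intervals was -7.69 at 0.04 Mb and -6.58 at 0.2 Mb in f14 libraries and -8.58 at 0.2 Mb without isolated calls, all now past the threshold. It was -7.17 at 0.4 Mb, -3.85 at 1 Mb and -6.81 at 4 Mb in f13 libraries and -5.15 at 1 Mb with at least 10 windows, no longer past it. With the other intervals at equal weight the values at 0.04, 0.4, 1 and 4 Mb were 0.0087, -4.69, -1.30 and -3.29, none past the threshold. The D′ difference from other intervals was -0.0333 at 0.4 Mb and -0.0144 at 1 Mb in f13 libraries, and -0.209 at 2 Mb and -0.434 at 8 Mb in f14 libraries. Mean D′ of all pairs relative to the chromosome was -0.0552 in windows detected in 5% to 10% of libraries and 0.0515 without pairs of negative D′, where 85 to 90 minus 90 to 95 Mb was -0.065. Called segment pairs numbered 12 of 45 without isolated calls (47.9% of all pairs called), 5 in f13 (9.09%) and 17 in f14 libraries (32.8%), and 3 of 6 with segments of 2 Mb (72.6%). Fewer libraries and calls lower what the exact test can call, and other causes were not tested. No paired analysis was possible because the labels give 1 group, apart from the comparisons of each library with itself in the tests above. With 74 slices and 3.70 detections per window, single window pairs hold too few shared slices to be read alone.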
